A study of Mus musculus with 2 samples.

Results

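The mitochondrial carrier family was described in the hearts of 2 male mice aged 25 days. Both animals were F1 hybrids of the strain B6CASTF1/J, and total RNA was sequenced as 1 library per heart from 300 ng of RNA with synthetic spike-in RNAs added. The hearts are biological replicates 1 and 2 of 1 group, with no second genotype, treatment, age or tissue, although the labels give both the same donor identifier. Family members were taken as the protein-coding genes whose symbol is Slc25a followed by digits alone, together with Ucp1, Ucp2 and Ucp3. The rule found 50 genes of 22028 protein-coding genes and of 55536 genes in all. It used symbols and no measured value. The only other Slc25a symbol in the tables was the pseudogene Slc25a5-ps, with estimated counts of 0 in replicate 1 and 1.03 in replicate 2.

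Mitochondrial carriers are small membrane proteins that move metabolites across the otherwise tight inner mitochondrial membrane, mostly by exchanging a molecule from the cytosol for a molecule from the matrix. In heart muscle, which makes nearly all of its ATP in mitochondria, they bring in ADP, phosphate, fatty acids bound to carnitine and the reducing equivalents of the malate-aspartate shuttle, and they send out ATP. Uncoupling proteins belong to the same family, and the founding member Ucp1 lets protons back across the membrane in brown fat so that heat is made in place of ATP.

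Levels are in TPM, a transcript abundance per effective length with an equal sum in both libraries, so that genes can be compared with each other, and a value with ± is the mean and SD of both hearts (n = 2). The libraries held 38253821 estimated gene counts in replicate 1 and 40655101 in replicate 2, so a gene at 0 counts could have had up to 3, which is 0.0784 CPM (counts scaled so that both libraries sum alike) in replicate 1 and 0.0738 CPM in replicate 2. Cardiomyocyte markers were high, with the myosin heavy chain gene Myh6 at 8807 TPM in replicate 1 and 8307 TPM in replicate 2. Markers of T cells, neurons and liver were all below 1 TPM in both hearts, and the liver gene Alb had a count of 0 in both. Of 4 skeletal muscle markers, Acta1 had 93.0 TPM in replicate 1 and 227 TPM in replicate 2, and Ckm had 1653 and 1806 TPM. Mylpf had 1.45 and 1.04 TPM, from 9 and 13 counts, and Tnnt3 had 0.32 and 0.71 TPM. The part of skeletal muscle in the carrier levels was not tested. Red cell and adipocyte markers were higher in replicate 1, and their values are given beside the carriers they accompany.

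Most carrier genes were expressed in both hearts, over a wide range of levels. At 1 TPM or more in both hearts stood 39 of the 50 carriers, against 49.5% of all protein-coding genes, and at 10 TPM or more stood 19 of 50, against 20.5%. The median carrier had a mean level of 5.75 TPM, against 1.07 TPM over nuclear protein-coding genes. The family summed to 3750 TPM in replicate 1 and 3987 TPM in replicate 2, which was 1.04% ± 0.0650 of the TPM of nuclear protein-coding genes. Of that sum, 70.5% ± 1.40 came from Slc25a4 and Slc25a3 alone. Among 22015 nuclear protein-coding genes, Slc25a4 ranked 15 and Slc25a3 ranked 42 by mean TPM. At the other end, Slc25a41 and Slc25a54 had a count of 0 in both hearts.

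**Figure D1:**
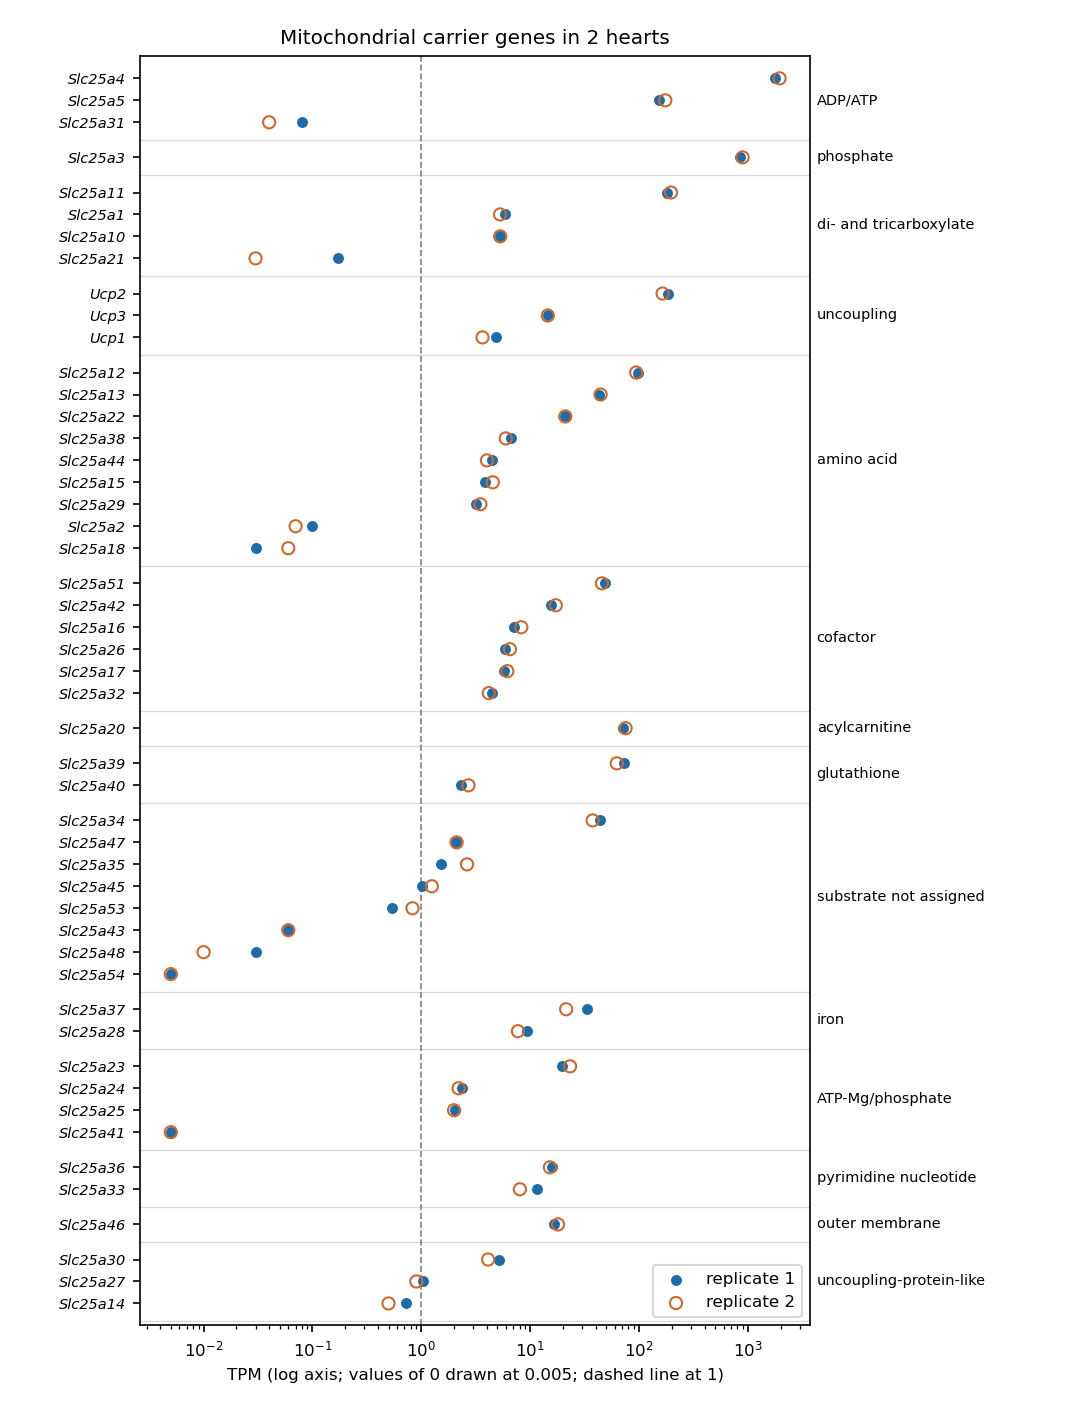
TPM (log axis) of carrier genes in replicate 1 (filled points) and replicate 2 (open circles), grouped by carrier class from the highest to the lowest summed level, with a dashed line at 1 TPM. Slc25a4 and Slc25a3 lie farthest to the right, at 851 TPM or more in both hearts, and 11 genes lie below the dashed line in at least 1 heart.

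The ADP/ATP carriers, which exchange matrix ATP for cytosolic ADP, had the highest summed level of any class. Slc25a4 (ENSMUSG00000031633.4, chr8:46206797-46211284), the adenine nucleotide translocator of heart and skeletal muscle, had 1758 TPM in replicate 1 and 1956 TPM in replicate 2. Slc25a5, the form found in most tissues, had 152 TPM in replicate 1 and 174 TPM in replicate 2. Slc25a31, the form of the male germ line, had 0.08 TPM in replicate 1, from 5 counts, and 0.04 TPM in replicate 2, from 3 counts. Slc25a4 therefore stood above Slc25a5 in each heart, by 3.53 on the log2 scale in replicate 1 and 3.49 in replicate 2, with a mean of 3.51 ± 0.03. The class summed to 2020 ± 156 TPM, or 52.2% ± 1.79 of the family, and Slc25a4 made up 91.9% ± 0.162 of it.

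The coding sequences of Slc25a4 and Slc25a5 are shown where they encode the run of 3 arginines and 3 methionines that marks ADP/ATP carriers, because reads of such similar genes have to be told apart before their levels can be compared. Both have 894 coding bases without the stop codon, of which 692 (77.4%) are identical, and the longest identical run is 20 bases. The lines give 78 coding bases of each gene, 5′ to 3′, from the transcript sequences of GENCODE M21 on mm10, with the 18 bases of the 6 codons (coding bases 703 to 720) in capitals. Each stretch crosses the junction of 2 coding exons, on chromosome 8 between bases 46207610 and 46208464 on the minus strand for Slc25a4, and on chromosome X between bases 36797810 and 36798397 on the plus strand for Slc25a5.
Slc25a4: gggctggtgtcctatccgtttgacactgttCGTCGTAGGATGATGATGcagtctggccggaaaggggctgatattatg
Slc25a5: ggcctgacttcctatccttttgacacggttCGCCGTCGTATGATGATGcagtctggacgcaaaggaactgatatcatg
No stretch of 100 bases of the leading Slc25a4 transcript occurs in another annotated gene. In Slc25a5, 12% of such stretches occur in the processed pseudogenes Gm5256, Gm5529, Gm5560 or Gm6425, so its level is less certain. Those pseudogenes had at most 0.21 TPM in a heart.

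The other nucleotide carriers were far below the ADP/ATP carriers. Slc25a36 and Slc25a33 carry pyrimidine nucleotides into mitochondria, and Slc25a36 had 15.8 TPM in replicate 1 and 15.2 TPM in replicate 2, while Slc25a33 had 11.5 TPM in replicate 1 and 8.05 TPM in replicate 2. The log2 ratio of Slc25a36 to Slc25a33 was 0.68 ± 0.32, but −0.047 when the transcripts annotated as protein-coding were summed alone. Slc25a23, a calcium-regulated exchanger of ATP-Mg for phosphate, had 19.6 TPM in replicate 1 and 23.3 TPM in replicate 2. Its relatives Slc25a24 and Slc25a25 had 2.29 ± 0.127 and 2.02 ± 0.0283 TPM, and Slc25a41, a form without calcium-binding motifs, was at 0 counts. Slc25a23 exceeded Slc25a24 by 3.17 ± 0.25 on the log2 scale. Slc25a25 and Slc25a24 had no order that held in both quantifications, since their log2 ratio was −0.17 ± 0.06 in the gene table and 0.27 in the second quantification. Together, the 3 nucleotide classes summed to 2071 ± 156 TPM, or 53.5% ± 1.72 of the family.

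Slc25a3 (ENSMUSG00000061904.12, chr10:91116574-91124059) carries inorganic phosphate into the matrix, where ATP synthase joins it to ADP. It had 851 TPM in replicate 1 and 895 TPM in replicate 2, or 22.6% ± 0.158 of the family sum. Slc25a3 was below Slc25a4 in both hearts, with a log2 ratio of −1.09 ± 0.06. The nucleotide carriers together exceeded Slc25a3 by 2.31-fold in replicate 1 and 2.44-fold in replicate 2.

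Slc25a3 makes alternative transcripts that use one or the other of neighbouring exons, and the upstream exon is known as that of the heart and skeletal muscle form. Both exons are shown because the transcript tables separate them. They lie on the minus strand of chromosome 10 in mm10, at chr10:91122207-91122331 for the upstream exon of 125 bases and at chr10:91121922-91122043 for the downstream exon of 122 bases. They are printed 5′ to 3′ from the GENCODE M21 transcripts, with bases that are identical in an alignment without gaps in capitals.
Upstream exon: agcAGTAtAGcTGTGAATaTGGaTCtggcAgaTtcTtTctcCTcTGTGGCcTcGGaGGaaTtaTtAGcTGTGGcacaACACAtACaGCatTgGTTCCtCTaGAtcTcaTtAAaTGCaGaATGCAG
Downstream exon: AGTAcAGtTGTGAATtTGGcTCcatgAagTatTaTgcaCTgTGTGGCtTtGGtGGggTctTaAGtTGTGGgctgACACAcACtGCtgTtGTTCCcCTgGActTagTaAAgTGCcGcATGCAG
The exons share 77 identical bases, which is 61.6% of the upstream and 63.1% of the downstream exon. Transcripts with the upstream exon had 776 TPM in replicate 1 and 822 TPM in replicate 2. Transcripts with the downstream exon had 69.1 TPM in replicate 1 and 67.0 TPM in replicate 2. The upstream exon thus held 92.1% ± 0.449 of the TPM on transcripts with either exon. In the second quantification it held 79.6% ± 1.36, with 20.4% on the downstream exon. The upstream exon led in both hearts and in both quantifications, while the size of its lead differed between the quantifications. The transcript Slc25a3-206 alone held 91.5% ± 0.444 of the TPM of Slc25a3, and 75.2% in the second quantification.

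Slc25a20 (ENSMUSG00000032602.6, chr9:108662088-108684641), the carnitine-acylcarnitine translocase, takes fatty acids bound to carnitine into the matrix in exchange for free carnitine. It had 70.6 TPM in replicate 1 and 75.4 TPM in replicate 2, or 1.89% ± 0.00622 of the family sum, and 99.3% of its TPM lay on 1 protein-coding transcript. Slc25a29, a carrier of basic amino acids with a similar sequence, had 3.32 ± 0.240 TPM and was exceeded by Slc25a20 by 4.42 ± 0.03 on the log2 scale. The other genes of the carnitine route that were listed were all at 1 TPM or more in both hearts. Cpt1b, the muscle enzyme that links long fatty acids to carnitine, had 197 ± 9.26 TPM, and Cpt1a, the form typical of liver, had 21.5 ± 0.0778 TPM. Cpt2, which releases the fatty acids again in the matrix, had 94.6 ± 2.21 TPM, and the carnitine acetyltransferase Crat had 168 ± 9.14 TPM. Slc22a5, which takes carnitine into the cell, was lower, at 8.02 ± 0.269 TPM.

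The amino acid carriers were led by the aspartate-glutamate exchangers of the malate-aspartate shuttle, Slc25a12 (aralar) and Slc25a13 (citrin). Slc25a12 (ENSMUSG00000027010.16, chr2:71271063-71367749) had 97.7 TPM in replicate 1 and 94.3 TPM in replicate 2. Slc25a13 had 43.0 TPM in replicate 1 and 44.4 TPM in replicate 2. At gene level, Slc25a12 exceeded Slc25a13 by 1.13 ± 0.07 on the log2 scale. That order turned round when the transcripts annotated as protein-coding were summed alone, with a log2 ratio of −2.49. The leading transcript of Slc25a12, Slc25a12-207, is annotated as a target of nonsense-mediated decay and held 60.9% of the TPM of the gene in replicate 1 and 70.9% in replicate 2. The annotated protein-coding transcript, Slc25a12-206, had 7.30 TPM in replicate 1 and 7.81 TPM in replicate 2, or 7.88% ± 0.575 of the gene. In the second quantification Slc25a12-207 held 58.2% and Slc25a12-206 11.4%. Slc25a13, by contrast, had 98.3% ± 1.35 of its TPM on protein-coding transcripts.

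Slc25a12-207 has 2392 bases and Slc25a12-206 has 6351 bases. Both use the same internal exons apart from an exon of 116 bases, which Slc25a12-207 lacks, and Slc25a12-207 also has a shorter first exon and a shorter 3′ end. The exon of 116 bases is shown because it separates the forms inside the transcript, and it lies at chr2:71333605-71333720 on the minus strand of mm10. It is printed 5′ to 3′ from the GENCODE M21 transcript.
Slc25a12 exon: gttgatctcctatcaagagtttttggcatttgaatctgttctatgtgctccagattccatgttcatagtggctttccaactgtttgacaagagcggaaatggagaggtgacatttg
The tables hold no counts of reads across exon junctions, so use of this exon was not measured directly.

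Slc25a22, a glutamate carrier, had 20.8 TPM in replicate 1 and 21.03 TPM in replicate 2. Its relative Slc25a18 had 0.03 TPM in replicate 1, from 2 counts, and 0.06 TPM in replicate 2, from 4 counts, and the log2 ratio of Slc25a22 to Slc25a18 was 7.19 ± 0.20. Its size depends on the number added to TPM, since it was 4.39 with 1 added and 8.63 with 0.01 added, and its sign did not. The remaining amino acid carriers were lower. Slc25a38, a glycine carrier needed for haem synthesis, had 6.35 ± 0.530 TPM, Slc25a44, which carries branched-chain amino acids, had 4.24 ± 0.318 TPM, and the ornithine carrier Slc25a15 had 4.21 ± 0.474 TPM. The second ornithine carrier, Slc25a2, had 4 counts in replicate 1 and 3 in replicate 2. The 9 amino acid carriers summed to 179 ± 1.39 TPM, or 4.63% ± 0.236 of the family, and the sum was 82.9 TPM over protein-coding transcripts alone. The enzymes of the malate-aspartate shuttle stood far above the carriers, with Mdh1 at 813 ± 45.8 TPM, Mdh2 at 702 ± 15.0 TPM, Got1 at 324 ± 5.23 TPM and Got2 at 291 ± 7.45 TPM.

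Slc25a11, which exchanges malate for oxoglutarate and so completes that shuttle, was the highest of the di- and tricarboxylate carriers. It had 181 TPM in replicate 1 and 197 TPM in replicate 2. The dicarboxylate carrier Slc25a10 had 5.27 ± 0.0566 TPM and was exceeded by Slc25a11 by 5.14 ± 0.07 on the log2 scale. The citrate carrier Slc25a1, which supplies carbon for fatty acid synthesis in the cytosol, had 5.57 ± 0.396 TPM. Slc25a21, a carrier of oxoadipate, had 9 counts in replicate 1 and 3 in replicate 2. The class summed to 200 ± 10.4 TPM, of which 94.5% ± 0.504 was Slc25a11. The pyruvate carrier genes Mpc1 and Mpc2, which belong to another family, had 275 ± 15.9 and 220 ± 19.9 TPM.

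The uncoupling protein genes were dominated at RNA level by Ucp2, a gene expressed in many tissues and prominent in immune cells. Protein levels were not measured. Ucp2 (ENSMUSG00000033685.13, chr7:100493337-100502020) had 185 TPM in replicate 1 and 165 TPM in replicate 2. Ucp3, the form of skeletal muscle and heart, had 14.7 TPM in replicate 1 and 14.5 TPM in replicate 2. Ucp1, the form of brown fat, had 4.83 TPM in replicate 1 and 3.65 TPM in replicate 2. Ucp3 was therefore below Ucp2, with a log2 ratio of −3.57 ± 0.11, and Ucp2 was above Ucp1 by 5.34 ± 0.16. Ucp3 and Ucp2 are neighbours on chromosome 7, with 6904 bases between them. The class summed to 205 TPM in replicate 1 and 183 TPM in replicate 2, or 5.02% ± 0.617 of the family, and Ucp2 made up 90.3% ± 0.295 of it.

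The abundance of Ucp2 was spread over transcripts of different annotated types. Protein-coding transcripts held 67.0% of its TPM in the first quantification. The leading transcript, Ucp2-210, is protein-coding and held 56.2% in replicate 1 and 55.7% in replicate 2. Ucp2-211, a processed transcript of 498 bases with no annotated protein, held 26.03% ± 0.568 in the first quantification and 0 TPM in both hearts in the second. Ucp2 also overlaps Dnajb13 on the other strand.

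Ucp2 and Ucp1 are expressed by cells other than heart muscle, so the markers of such cells are given here. Of 6 adipocyte markers, 6 were higher in TPM in replicate 1, and they summed to 514 TPM in replicate 1 and 282 TPM in replicate 2. Most of that gap was Cfd, with 174 TPM in replicate 1 and 22.1 TPM in replicate 2. Adipoq had 25.0 TPM in replicate 1 and 4.05 TPM in replicate 2. Cidea, a gene of brown fat, was nearly equal, with 15.6 TPM in replicate 1 and 15.5 TPM in replicate 2. The leptin gene Lep had 0.17 TPM in replicate 1, from 15 counts, and 0.11 TPM in replicate 2, from 12 counts. Of 6 macrophage markers, 4 were higher in replicate 1, and they summed to 139 TPM in replicate 1 and 96.3 TPM in replicate 2. Most of that gap was Lyz2, with 83.1 TPM in replicate 1 and 42.4 TPM in replicate 2, and the other 5 summed to 56.1 TPM in replicate 1 and 53.9 TPM in replicate 2. All 3 endothelial markers were lower in replicate 1, with a sum of 111 TPM there and 126 TPM in replicate 2. All 3 fibroblast markers were higher in replicate 1, with a sum of 389 TPM there and 353 TPM in replicate 2. The part of these cells in the levels of Ucp1 and Ucp2 was not tested, and in whole tissue fewer cells of a type and less RNA per cell cannot be told apart.

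The proteins that resemble uncoupling proteins but carry Slc25a symbols were low. Slc25a30 had 5.22 TPM in replicate 1 and 4.11 TPM in replicate 2. Slc25a27, known from brain, had 1.03 TPM in replicate 1 and 0.90 TPM in replicate 2, and Slc25a14, also known from brain, had 0.72 TPM in replicate 1 and 0.50 TPM in replicate 2. Slc25a14 was below Slc25a30, with a log2 ratio of −2.75 ± 0.08.

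The named classes could be ordered by summed TPM in each heart as nucleotide, phosphate, uncoupling, amino acid and acylcarnitine carriers, but the middle of that order was close. The phosphate carrier exceeded the uncoupling proteins by 4.16-fold in replicate 1 and 4.90-fold in replicate 2. Uncoupling proteins exceeded amino acid carriers by only 1.14-fold in replicate 1 and 1.03-fold in replicate 2, a log2 ratio of 0.11 ± 0.10, so that both hearts put them in the same order by little more than the SD. Amino acid carriers exceeded the acylcarnitine carrier by 2.55-fold in replicate 1 and 2.36-fold in replicate 2. The di- and tricarboxylate carriers and the uncoupling proteins could not be ordered at gene level, since their ratio was 0.941 in replicate 1 and 1.13 in replicate 2. In the second quantification they summed to means of 314 and 310 TPM, against 210 TPM for the amino acid carriers. Over protein-coding transcripts alone, the di- and tricarboxylate carriers summed to 195 TPM and the uncoupling proteins to 135 TPM. The cofactor carriers then summed to 94.6 TPM, the amino acid carriers to 82.9 TPM and the acylcarnitine carrier to 72.4 TPM. By that sum, the cofactor carriers stood above the amino acid carriers. The lower sum of the amino acid carriers lay mainly in 1 gene, Slc25a12, with a mean of 96.0 TPM at gene level. Its protein-coding transcript had 7.30 TPM in replicate 1 and 7.81 TPM in replicate 2. Use of the exon that separates its forms was not measured directly, so this order rests on how reads of Slc25a12 were assigned.

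**Figure D2:**
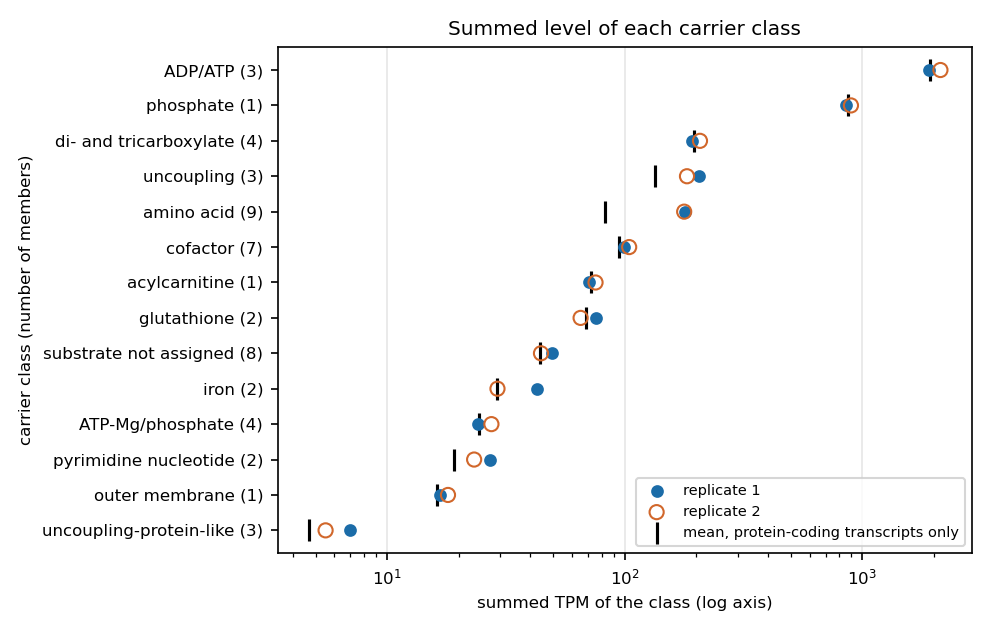
Summed TPM (log axis) of each carrier class in replicate 1 (filled points) and replicate 2 (open circles), with the mean over protein-coding transcripts alone as a vertical tick. The tick lies far left of the points for the amino acid carriers, at 82.9 TPM against 179 TPM, and left of them for the uncoupling proteins, at 135 TPM against 194 TPM. For the amino acid carriers the gap lay mainly in Slc25a12.

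The 7 cofactor carriers were all at 1 TPM or more in both hearts and summed to 102 ± 3.31 TPM. Slc25a51, which brings NAD into mitochondria, had 48.3 TPM in replicate 1 and 45.6 TPM in replicate 2, or 46.1% ± 3.33 of the class. Slc25a42, a coenzyme A carrier, had 15.6 TPM in replicate 1 and 17.2 TPM in replicate 2. Slc25a16, also linked to coenzyme A, had 7.69 ± 0.856 TPM and was exceeded by Slc25a42 by 1.09 ± 0.06 on the log2 scale. In the second quantification that log2 ratio was smaller, at 0.49 in replicate 1 and 0.70 in replicate 2. Slc25a26, which carries S-adenosylmethionine, the peroxisomal carrier Slc25a17 and the folate or flavin carrier Slc25a32 had 6.20 ± 0.460, 5.94 ± 0.332 and 4.31 ± 0.198 TPM.

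Among the glutathione carriers, Slc25a39 had 73.3 TPM in replicate 1 and 62.5 TPM in replicate 2, and Slc25a40 had 2.34 TPM in replicate 1 and 2.71 TPM in replicate 2, a log2 ratio of 4.69 ± 0.31. Slc25a39 was higher in the second quantification, at 119 TPM in replicate 1 and 111 TPM in replicate 2. Slc25a46, a member that sits in the outer membrane and acts in mitochondrial shape, had 16.7 TPM in replicate 1 and 18.0 TPM in replicate 2. Slc25a34, whose substrate was left unassigned here, had 44.1 TPM in replicate 1 and 37.5 TPM in replicate 2 on its 1 annotated transcript, and made up 86.9% ± 3.44 of the 8 unassigned members. The others were low, with Slc25a47 at 2.10 ± 0.0141 TPM, Slc25a35 at 2.08 ± 0.778 TPM, Slc25a45 at 1.13 ± 0.170 TPM and Slc25a53 at 0.685 ± 0.205 TPM. Slc25a43 had 2 counts in each heart, Slc25a48 had 3 in replicate 1 and 1 in replicate 2, and Slc25a54 had none.

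The 15 pairs of related carriers were chosen with earlier results of these data known, and no share over other gene pairs was counted. All 15 pairs had the same sign in both hearts and a mean larger than the SD, so this count has no background to be read against. Their mean log2 ratios reached from −3.57 for Ucp3 over Ucp2 to 7.19 for Slc25a22 over Slc25a18, whose size is set by the number added to TPM. The sign was the same under every alternative tried for 12 of the pairs, and the exceptions were Slc25a12 over Slc25a13, Slc25a36 over Slc25a33 and Slc25a25 over Slc25a24. No test of these ratios was made, since the exact sign-flip test over 2 hearts cannot pass a threshold.

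**Figure D3:**
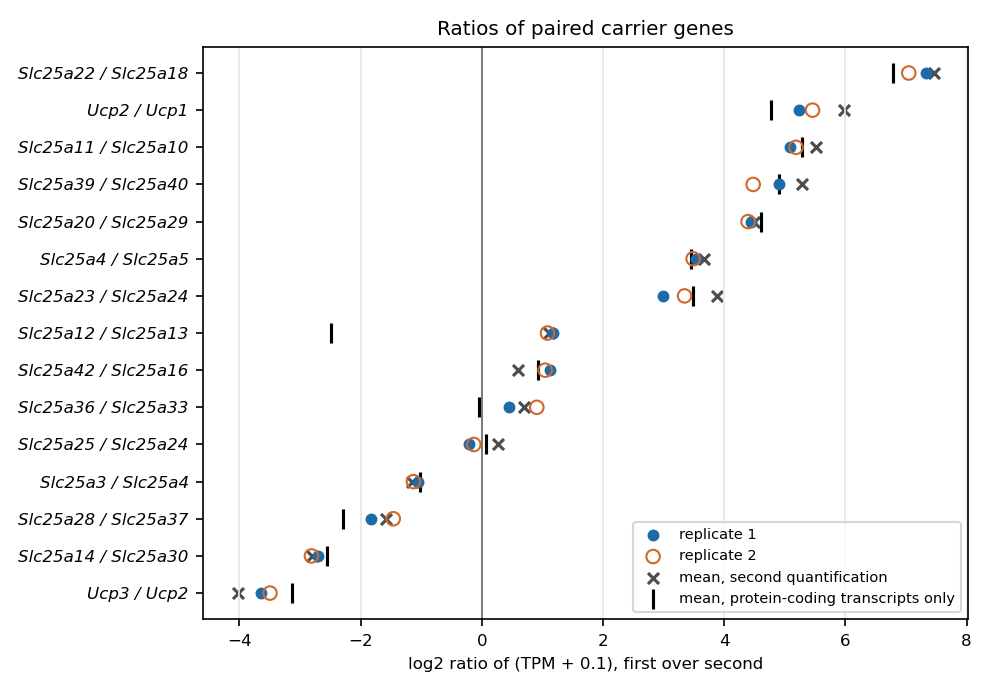
Log2 ratios of TPM + 0.1 for 15 pairs of carriers, first gene over second, in replicate 1 (filled points) and replicate 2 (open circles), with the mean in the second quantification as a cross and the mean over protein-coding transcripts alone as a vertical tick. The tick for Slc25a12 over Slc25a13 lies at −2.49, across 0 from its points, while the symbols of most pairs lie on 1 side.

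In the first quantification, carrier genes were mostly represented by 1 leading transcript. Of the 19 carriers at 10 TPM or more in both hearts, all 19 had the same leading transcript in both hearts, against 92.9% of all protein-coding genes at that level. In 16 it held over 50% of the TPM of the gene in both, against 68.8% of such genes. The leading transcript held over 90% in both hearts in 8 of 19, against 25.2%. In the second quantification the leading transcript held over 50% in both hearts in 11 of 19, and no share over all such genes was counted there. The quantifications named the same leading transcript for 16 of 19, against 75% of all such genes. Among the exceptions, the leader held 60.7% in Slc25a22 and 43.8% in Slc25a51 in the first quantification, and the same transcripts held 5.79% and 7.71% in the second. The leading transcript was of another type than protein-coding in 1 of 19, Slc25a12, against 7.52% of all such genes.

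Over 90% of the TPM lay on protein-coding transcripts in both hearts in 11 of the 19 carriers, against 55.9% of all protein-coding genes at that level. Under 75% lay on them in 3 of 19, namely Slc25a12, Slc25a36 with 60.0% and Ucp2, against 22% of all such genes. The median carrier had 95.1% on protein-coding transcripts, and the median over all such genes was 94.2%. Slc25a12 had the lowest share among the 19.

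**Figure D4:**
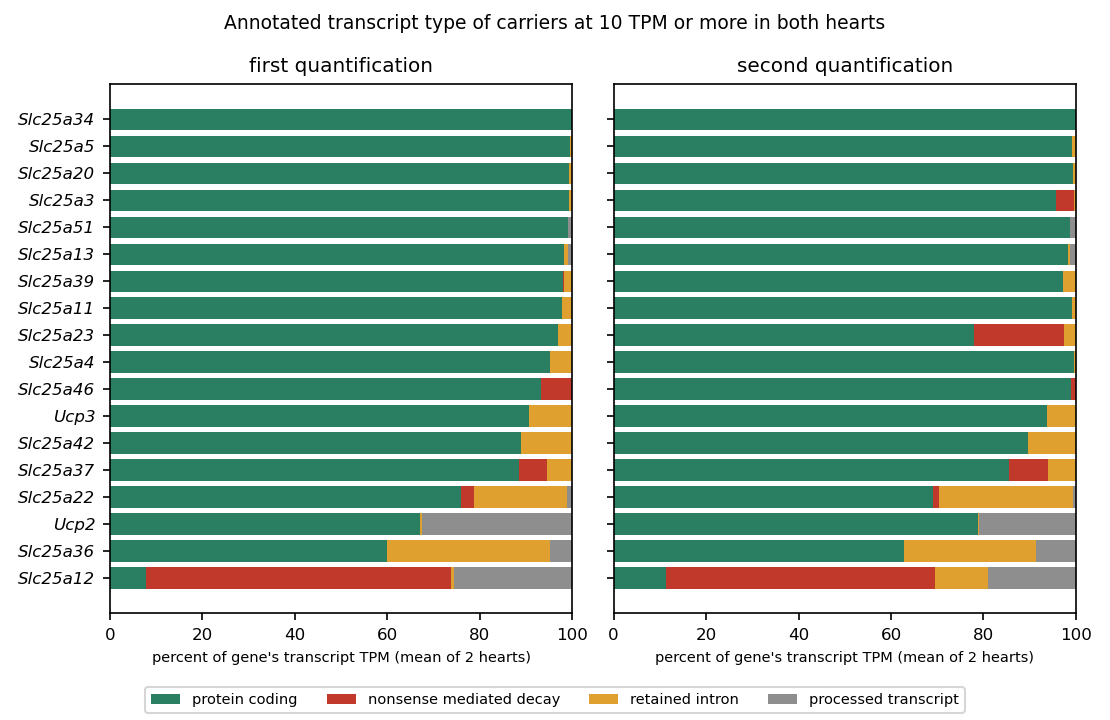
Percent of the transcript TPM of a gene (mean of 2 hearts) on each annotated transcript type, for carriers at 10 TPM or more in both hearts, in the first (left) and the second quantification (right). Protein-coding transcripts fill most bars, and Slc25a12 stands apart in both, with 7.88% and 11.4% on its protein-coding transcript.

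Of the carriers compared between the hearts, the iron carrier Slc25a37 differed most. Slc25a37 (mitoferrin 1; ENSMUSG00000034248.7, chr14:69241848-69285112), which imports iron for haem synthesis in red cell precursors, had 33.5 TPM in replicate 1 and 21.4 TPM in replicate 2. Slc25a28 (mitoferrin 2), the form of other tissues, had 9.4 TPM in replicate 1 and 7.72 TPM in replicate 2, and its log2 ratio to Slc25a37 was −1.64 ± 0.25. On counts scaled between the libraries, the log2 ratio of replicate 1 over replicate 2 was 0.72 for Slc25a37, with an exact binomial 95% interval of 0.65 to 0.78, and 0.25 for Slc25a28, with an interval of 0.04 to 0.45. These intervals cover counting error only, and 1 library per heart gives no replicate check. Of 5 red cell markers, 5 were higher in TPM in replicate 1. Their summed level was 46562 TPM in replicate 1 and 23411 TPM in replicate 2, and the haem synthesis gene Alas2 had 202 TPM in replicate 1 and 105 TPM in replicate 2. Their part in the level of Slc25a37 was not tested. Of stretches of 100 bases of Slc25a37, 6.94% also occur in the gene Gm16867, which had 1.77 TPM in replicate 1 and 2.13 TPM in replicate 2.

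The other carriers compared stayed within 1.5-fold between the hearts. Of the 41 carriers with a mean of 1 CPM or more, none differed by 2-fold, against 1.22% of the 12910 genes compared. By 1.5-fold differed 1, Slc25a37, against 4.54% of genes. The next largest ratios were those of Slc25a33, at 0.54 on the log2 scale with an interval of 0.38 to 0.71, of Slc25a53, at −0.45 with an interval of −1.14 to 0.23, and of Ucp1, at 0.44 with an interval of 0.16 to 0.72. The median absolute log2 ratio was 0.17 over the carriers and 0.12 over all genes compared. Higher in replicate 1 were 20 of the 41, and higher in replicate 2 were 21, which became 29 and 12 when spike-in totals set the scale and 18 and 23 when gene count totals did. The interval excluded 0 for 19 of 41, against 33.2% of the genes compared. Such intervals narrow as counts rise and the genes were not matched by level, so these shares cannot be compared directly. They were counted under the TMM scaling alone. Among the carriers with the highest levels, the ratio was −0.11 for Slc25a4, −0.04 for Slc25a3, −0.08 for Slc25a11, 0.19 for Ucp2 and −0.17 for Slc25a5.

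**Figure D5:**
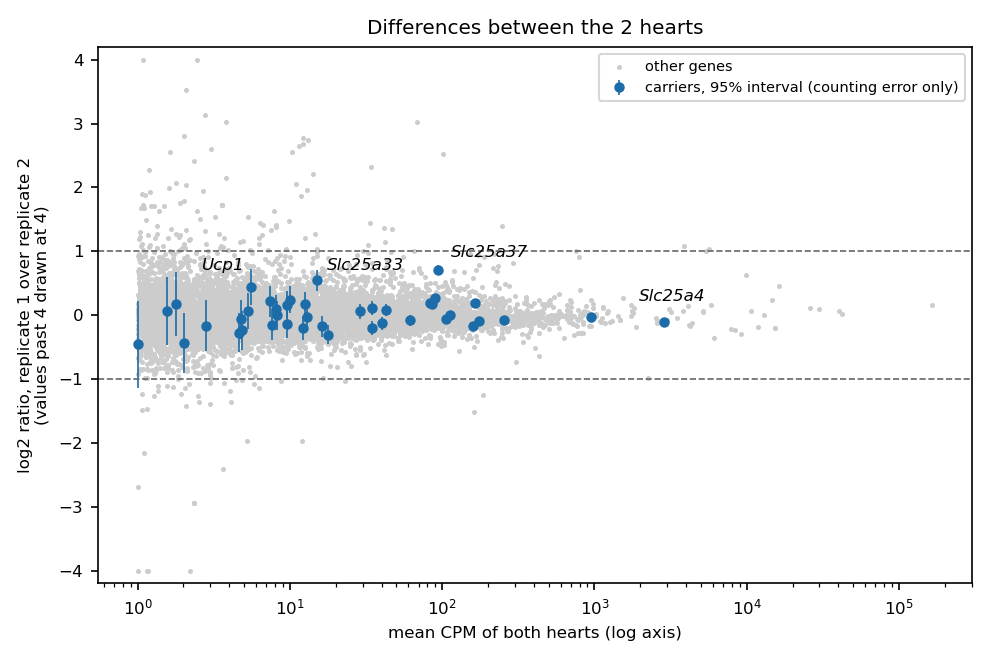
Log2 ratio of scaled counts, replicate 1 over replicate 2, against mean CPM of both hearts (log axis), for the 41 carriers with 95% intervals of counting error and for the other genes in grey, with dashed lines at a 2-fold difference. No carrier reaches a dashed line, and Slc25a37 is the farthest from 0, at 0.72.

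At gene level, 40 of the 50 carriers had a higher TPM in the second quantification than in the first in both hearts, against 62.4% of all protein-coding genes. Among those at 10 TPM or more it was 17 of 19, against 85.9%. The mean level in the second quantification was 2347 TPM for Slc25a4, 1053 TPM for Slc25a3, 300 TPM for Slc25a11, 288 TPM for Ucp2, 185 TPM for Slc25a5 and 33.02 TPM for Slc25a23. For Slc25a11, Ucp2, Slc25a39 and Slc25a23 this was over 1.5 times the level in the gene table.

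Of 31 listed genes that work beside the carriers, 30 were at 1 TPM or more in both hearts, against 49.5% of all protein-coding genes. The list was chosen with earlier results of these data known. For exchange of nucleotides, the outer membrane pore Vdac1 had 357 ± 9.21 TPM, Vdac2 169 ± 11.5 TPM and Vdac3 132 ± 12.1 TPM. The creatine kinase of muscle mitochondria, Ckmt2, had 914 ± 56.1 TPM, and the form of other tissues, Ckmt1, had 0.72 ± 0.354 TPM. The matrix cyclophilin Ppif had 94.3 ± 7.02 TPM, and the adenylate kinase Ak4 had 9.47 ± 0.665 TPM. The 10 listed genes of the machinery that imports carriers were all at 1 TPM or more. Their median was 17.4 TPM, with a range of means from 5.97 TPM for Agk to 94.5 TPM for Timm8b. The channel subunit Timm22 had 16.5 ± 2.60 TPM. Mtch1 and Mtch2, relatives of the carriers in the outer membrane, had 72.0 ± 9.41 and 66.4 ± 0.919 TPM.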

How the data were processed

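Estimated counts per gene and per transcript were deposited by the authors for each heart, with TPM over all genes and spike-ins as maximum likelihood and posterior mean estimates, and the percent of each gene's abundance held by each transcript was deposited by the authors beside them. A second transcript table deposited by the authors holds estimated counts and TPM of a separate quantification. The first tables have the column names of RSEM output and the second those of kallisto output. Which tools, versions and strand settings were used is not given in the sources used here. The labels name the mm10 assembly, and the annotation is GENCODE M21 per the text files that the authors deposited with the tables.

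TPM was used for levels and for ratios within a heart (log2 of TPM + 0.1, so that ratios to genes near 0 come out too small). A pair was called ordered when both hearts gave the same sign and the SD was smaller than the mean. No p is printed, because the smallest two-sided p of an exact sign-flip test over 2 hearts is 0.5. Transcript percents were recomputed from transcript TPM. For differences between hearts, estimated counts were rounded to whole numbers and scaled with TMM factors (edgeR 4.0.16, R 4.3.3), and genes with a mean CPM of at least 1 were compared. The step was tested on simulated data. DESeq2 1.42.0 size factors, gene count totals and spike-in totals were alternatives. Transfer RNA rows (26248, with 3 and 1.85 counts in replicates 1 and 2) and spike-ins were left out of library sizes. Intervals and floors cover counting error alone, and leave out spread between animals and error in assigning reads to genes. Without molecular identifiers reads may be copies of 1 molecule, so counting error itself may be understated. Nothing but the sample labels says that the hearts came from separate animals, so the SD may in part be technical.

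Every carrier was to be named, apart from items not reported here, with the value of each heart for those at a mean of 10 TPM or more and for the highest of each class. Substrate classes follow textbook knowledge. Carriers, classes, pairs, partner and marker lists were chosen with earlier results of these data known. Protein sequences are not shown. Python 3.11.15, numpy 2.4.6, pandas 2.3.3 and matplotlib 3.10.9 were used.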

Additional observations from a re-analysis of the deposited data

How the results depend on the processing

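No paired analysis was possible because both hearts belong to 1 group. The number of carriers at 1 TPM or more in both hearts was 39 and lay between 38 and 42 under other quantifications and scalings, with 42 at a threshold of 0.5 TPM and 27 at 5 TPM. The summed TPM of the family was 4929 in the second quantification, 10391 when TPM was rescaled over nuclear protein-coding genes and 3580 over protein-coding transcripts alone (an alternative chosen after seeing the data), against 3869 as reported, and it was 3750 and 3987 in each heart alone. The share of the nucleotide carriers stayed between 52.3% and 55.0%. The log2 ratio of Slc25a25 over Slc25a24 reversed to 0.27 in the second quantification, 0.29 with posterior mean TPM and 0.072 over protein-coding transcripts, where that of Slc25a12 over Slc25a13 reversed to −2.49 and that of Slc25a36 over Slc25a33 to −0.047, and the last alternative sums fewer transcripts. The leading transcript held over 50% in 16 carriers in the first and 11 in the second quantification, and the upstream exon of Slc25a3 held 79.6% in the second, also an alternative chosen after seeing the data. The cause of the difference between quantifications was not tested. No carrier differed by 2-fold between the hearts, as was so under every other scaling, and 1 differed at a threshold of 1.5-fold. Without a filter on low counts, 2 carriers differed by 2-fold. These were Slc25a48, with 3 counts in replicate 1 and 1 in replicate 2, and Slc25a21, with 9 and 3. Beside them, 4858 of 24638 genes were called 2-fold apart. Counts of 0 were set to 3 before these ratios, so 4858 is not a measured number of genes that differ 2-fold. Spike-in totals moved the median of all genes to 0.13 on the log2 scale and Slc25a37 to 0.86. Depth limits the 8 carriers with at most 9 counts in each heart, whose order cannot be read.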

Other observations

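Of the 50 carriers, 19 overlap an annotated gene on the other strand and 8 overlap one on the same strand, and whether strand was used in counting is not stated. The share of all protein-coding genes with such overlaps, or with the shared stretches that follow, was not counted, so these numbers do not set the carriers apart. Stretches of 100 bases shared with another gene occurred in 5 carriers. They made up 0.886% of such stretches in Slc25a3, 7.88% in Slc25a36 and 7.37% in Slc25a40, beside the values given for Slc25a5 and Slc25a37. Gene counts that were not whole numbers, to within 0.01, occurred in 3 carriers, Slc25a3, Slc25a5 and Slc25a37, against 14.9% of protein-coding genes at 1 TPM or more in both hearts.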
